A study of Mus musculus with 6 samples.

Results

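The transcripts described here are 10 genes of eicosanoid and platelet-activating factor metabolism in mouse macrophages. They are the cyclooxygenases Ptgs1 and Ptgs2, the prostaglandin synthases Ptges, Ptges2, Ptges3 and Hpgds, the prostaglandin reductase Ptgr1, the leukotriene genes Alox5ap and Lta4h, and the lipoprotein-associated phospholipase Pla2g7. They were taken by symbol from a deposited table of 55335 genes, in which each of the 10 had exactly 1 row. All 10 passed the filter on low counts, which left 13901 genes for testing.

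The samples were RNA-seq libraries of bone marrow-derived macrophages, primary cells matured from marrow precursors in medium with macrophage colony-stimulating factor. For every sample the labels give 20 ng/mL of this factor and 10% serum. In the 3 PAC-CM-KD libraries the cells received, on day 5, a conditioned medium (PAC-CM, from pancreatic acinar cells that had been injured) together with 400 µM kinsenoside, a plant glycoside. In the 3 PAC-CM libraries they received the conditioned medium without kinsenoside. Neither the way the acinar cells were injured nor the vehicle of kinsenoside is stated in the labels, and every sample received the medium. The values therefore describe kinsenoside on top of the medium and not the response to the medium itself. The labels do not say whether replicates were separate cultures or animals, and p-values therefore measure the spread between these libraries, which may be technical.

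Eicosanoids are short-lived lipid signals made from arachidonic acid, a fatty acid that phospholipases cut from membranes. Cyclooxygenases turn it into an unstable intermediate that terminal synthases convert into prostaglandins E2, D2, I2 or thromboxane, while 5-lipoxygenase, working with its partner protein FLAP, starts the leukotriene branch. In macrophages, inflammatory stimuli are known to induce Ptgs2 and Ptges together, and the prostaglandin E2 they make acts on vessels, pain fibres and the macrophages themselves.

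Total counts lay between 41125059 and 43434292 in PAC-CM-KD libraries and between 43054066 and 47461702 in PAC-CM libraries. A limit of 3 counts, below which a gene cannot be told from absent, corresponded to 0.0632 to 0.0729 CPM (a gene's count scaled to the library total) and covers counting error only. PAC-CM-KD replicate 1 stood apart on the second principal component of log2 CPM, at -39.3, against -6.13 to 19.7 for the other libraries. All 8 macrophage markers were present, with a summed level of 22393 to 25275 CPM in PAC-CM-KD libraries and 20503 to 22617 CPM in PAC-CM libraries. The sums cover 9 gene identifiers, since Itgam is listed under more than 1. The largest part of each sum was Lyz2, at 12047 to 15323 CPM in PAC-CM-KD and 11052 to 12771 CPM in PAC-CM.

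Per unit of transcript length, these macrophages carried far more of some steps than of others. In TPM (the count divided by the mean length of the gene's annotated transcripts and scaled to a sum that is the same in every library), Pla2g7 averaged 1285 ± 122.5 TPM in PAC-CM-KD libraries and 1227 ± 88.7 TPM in PAC-CM libraries (SD, n = 3 each). Ptges averaged 868.0 ± 124.4 TPM with kinsenoside and 1063 ± 92.1 TPM without it. Both lay above 99.0% or more of the tested genes of known length. Alox5ap followed at 366.1 ± 18.4 TPM in PAC-CM-KD libraries and 379.7 ± 32.4 TPM in PAC-CM libraries, and Ptgr1 at 183.3 ± 32.1 TPM in PAC-CM-KD and 149.4 ± 6.15 TPM in PAC-CM. At the low end, Ptges2 averaged 5.38 TPM with kinsenoside and 6.24 TPM without, and Ptgs1 averaged 2.84 ± 0.908 TPM with kinsenoside and 1.62 ± 0.641 TPM without.

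Ptges3, Ptgs2, Lta4h and Hpgds lay between these extremes, at 97.2, 66.9, 67.9 and 27.3 TPM with kinsenoside and at 98.2, 76.8, 67.8 and 22.9 TPM without it. Among neighbours in the order, the library ranges of Lta4h and Ptgs2 overlapped in PAC-CM-KD. In PAC-CM the ranges of Pla2g7 and Ptges, of Ptges3 and Ptgs2, and of Ptgs2 and Lta4h overlapped. With the longest transcript as the length, none of these pairs overlapped, so the overlaps depend on the length used. The library ranges of Ptgr1 and Alox5ap then overlapped in PAC-CM-KD, with means of 293.1 and 300.1 TPM. Ptges came down to 508.6 TPM with kinsenoside and 627.6 TPM without it. Lta4h came down to 38.5 and 38.7 TPM, below Ptgs2 at 57.8 and 67.0 TPM, with and without kinsenoside.

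**Figure D1:**
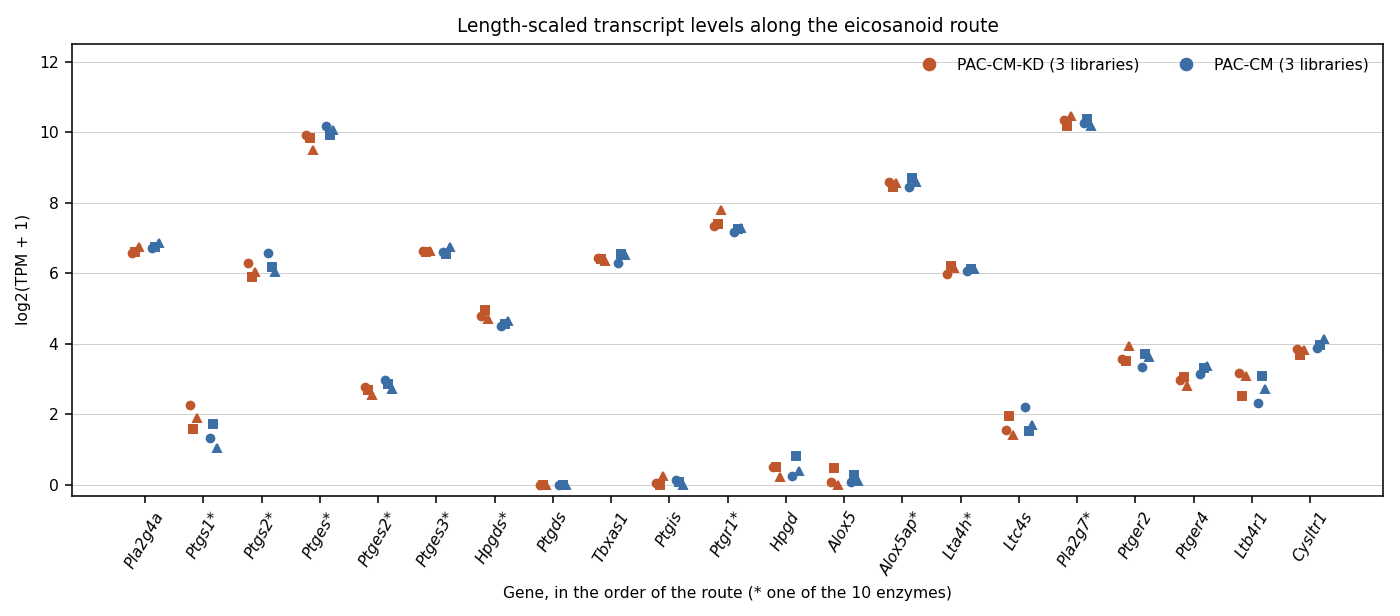
Length-scaled level, log2(TPM + 1), of the 10 enzymes (marked with an asterisk) and of other genes along the route, with 1 symbol per library (circle, square and triangle for replicates 1, 2 and 3). Ptges and Pla2g7 sit highest, Ptgds lies at 0 and Alox5 close to 0 in both groups.

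Cyclooxygenase transcripts were almost all Ptgs2, the inducible isoform. Ptgs2 made up 95.3%, 96.7% and 96.0% of the summed Ptgs1 and Ptgs2 TPM in PAC-CM-KD replicates 1 to 3, and 98.4%, 96.9% and 98.4% in PAC-CM replicates 1 to 3. The share was lower in each PAC-CM-KD library than in each PAC-CM library, by a narrow margin. This balance and the ratios further on were chosen after the values were seen and were not tested.

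The promoters of both cyclooxygenase genes and of Ptges are shown because these 3 genes, which act in sequence, include the lowest and the second highest mean TPM among the 10. Each sequence runs from 250 bases before to 30 bases after the RefSeq start (GRCm38.p6), 5′ to 3′ on the gene's strand, and capitals mark motif matches.
Ptgs1, plus strand, chr2:36230176-36230455: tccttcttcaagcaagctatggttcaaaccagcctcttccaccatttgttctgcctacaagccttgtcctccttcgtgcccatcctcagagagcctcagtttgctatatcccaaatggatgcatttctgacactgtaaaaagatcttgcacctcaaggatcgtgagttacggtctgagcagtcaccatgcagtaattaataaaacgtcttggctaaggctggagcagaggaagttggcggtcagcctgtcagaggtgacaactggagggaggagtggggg
Ptgs2, plus strand, chr1:150099781-150100060: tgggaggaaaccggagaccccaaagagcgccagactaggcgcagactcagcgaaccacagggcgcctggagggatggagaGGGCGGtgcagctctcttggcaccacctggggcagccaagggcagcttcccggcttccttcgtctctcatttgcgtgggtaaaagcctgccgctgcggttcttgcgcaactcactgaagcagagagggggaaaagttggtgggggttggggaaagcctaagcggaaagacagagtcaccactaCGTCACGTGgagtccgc
Ptges, minus strand, chr2:30903268-30903547: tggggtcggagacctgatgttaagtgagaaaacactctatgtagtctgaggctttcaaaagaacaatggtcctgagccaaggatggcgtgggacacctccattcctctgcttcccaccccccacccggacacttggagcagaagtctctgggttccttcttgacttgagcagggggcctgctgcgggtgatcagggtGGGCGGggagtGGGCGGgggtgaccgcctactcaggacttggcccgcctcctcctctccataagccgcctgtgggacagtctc

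Both strands of the windows were searched for 8 motifs. They were the TATA box TATAAA, the CCAAT box CCAAT, the GC box GGGCGG, the E-box CACGTG, the cyclic AMP response core CGTCA, the EGR1 site GCGNGGGCG, the antioxidant response core TGACNNNGC and the NF-kB consensus. The Ptgs2 window held a cyclic AMP response core at position 14 after the start, which shares bases with an E-box at position 17, and a GC box at position -170. The Ptges window held GC boxes at positions -53 and -42, and the Ptgs1 window held none of the motifs. The RefSeq start of Ptges lies inside the annotated span of the gene, which on the minus strand begins at 30929863. Its window is therefore not the one before the outermost annotated start. Over 32851 RefSeq windows of the same length, 34.7% held the GC box, 19.9% the cyclic AMP response core and 6.79% the E-box. The other 5 motifs were in 36.1% (CCAAT), 13.1% (TATAAA), 11.5% (TGACNNNGC), 5.30% (GCGNGGGCG) and 4.22% (NF-kB consensus) of them. A match is a description of the letters and shows no binding. Of the 10 genes, 9 had a promoter entry; Alox5ap was not among them.

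In the comparison of PAC-CM-KD with PAC-CM, 0 of the 10 genes passed at an adjusted p of 0.05, by the quasi-likelihood test of edgeR with p-values adjusted by Benjamini and Hochberg's method over all 13901 genes. Over all tested genes 0.511% passed (0.209% higher and 0.302% lower in PAC-CM-KD), and a count of 0 among 10 does not stand apart from that share. At an unadjusted p under 0.05 there were 3 of the 10, all with higher estimates in PAC-CM-KD (Hpgds, Ptgr1 and Ptgs1), where 6.74% of all tested genes were higher and 8.19% lower at that level. DESeq2 called Hpgds alone of the 10, beside 3.6% of all genes it gave an adjusted p, and limma-voom called 0, beside 0.281%. Without PAC-CM-KD replicate 1 edgeR again called 0 of the 10, with the lowest adjusted p at 0.138 (Ptgr1). The median log2 fold change of the 10 was 0.06, beside -0.01 for all tested genes.

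The CPM values of the groups did not overlap for 2 of the 10, Hpgds and Ptgr1, both higher in PAC-CM-KD. Of all tested genes, 22.5% had groups that did not overlap, 6.86% with PAC-CM-KD higher and 15.7% with PAC-CM-KD lower. These CPM leave out the scaling between libraries that the test used, which sets PAC-CM-KD values higher against PAC-CM values. Counts in each direction therefore depend on that choice. Estimates lay above 0 for 7 genes and below 0 for 3 (Ptgs2, Ptges and Ptges2).

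**Figure D2:**
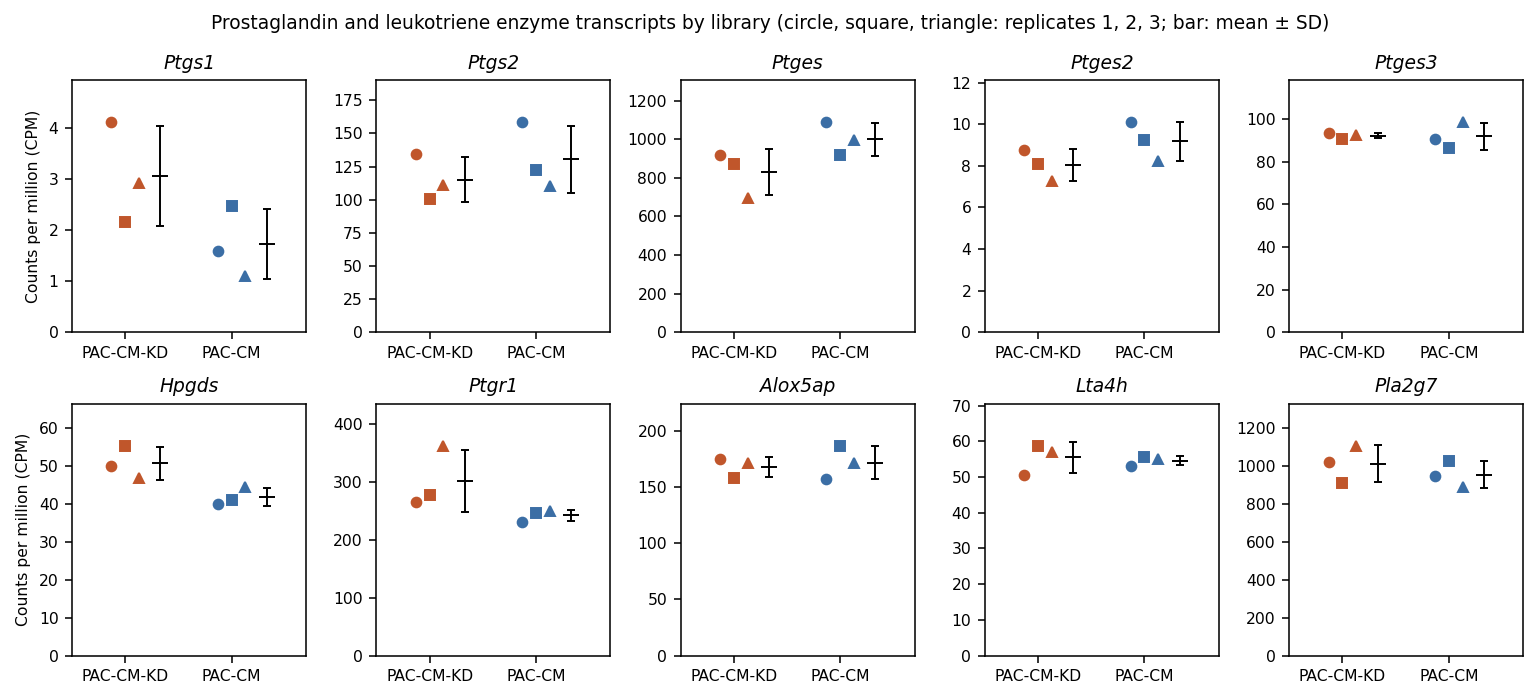
CPM of each of the 10 genes in each library, with the mean ± SD of the 3 libraries per group beside the points. PAC-CM-KD libraries lie above all PAC-CM libraries for Hpgds and Ptgr1, and the groups overlap for the other 8 genes.

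Among the cyclooxygenases, Ptgs2 (ENSMUSG00000032487, chromosome 1, 150100031 to 150108227, GRCm38) was at 134.1, 100.6 and 110.7 CPM in PAC-CM-KD replicates 1 to 3 and at 158.4, 122.4 and 110.2 CPM in PAC-CM replicates 1 to 3. The groups overlapped, with PAC-CM replicate 1 highest and PAC-CM-KD replicate 2 lowest. The log2 fold change was -0.13 (SE 0.159, 95% interval -0.51 to 0.24, edgeR adjusted p = 0.755), so the fold change lay between 0.703 and 1.18. Without PAC-CM replicate 1 the estimate was 0.03, on the other side of 0.

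Ptgs1 (ENSMUSG00000047250, chromosome 2, 36230426 to 36252272), the constitutive cyclooxygenase best known from platelets and stomach, rested on few reads. It had 179, 91 and 120 counts in PAC-CM-KD libraries and 69, 117 and 49 counts in PAC-CM libraries, or 4.12, 2.16 and 2.92 CPM against 1.6, 2.47 and 1.11 CPM. PAC-CM-KD replicate 1 was highest and PAC-CM replicate 3 lowest, and the groups overlapped. The log2 fold change of 0.87 was the largest among the 10 (SE 0.336, 95% interval 0.093 to 1.64, edgeR adjusted p = 0.290). Without PAC-CM-KD replicate 1 it was 0.60.

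The 6 platelet and megakaryocyte markers, none of them at 0, summed to 12.3 to 19.4 CPM in PAC-CM-KD and to 10.3 to 18.5 CPM in PAC-CM. Their log2 fold changes were 0.67 for Ppbp, a platelet chemokine, -0.19 for Itga2b, -0.12 for Gp1ba, -0.14 for Gp6, 0.034 for Gp9 and 0.031 for Treml1, and none passed. Ppbp had its highest value in PAC-CM-KD replicate 1, as Ptgs1 did, whereas Itga2b, Gp1ba, Gp6 and Treml1 were highest in PAC-CM replicate 2 and Gp9 in PAC-CM replicate 3. Their part in the Ptgs1 values was not tested. In such bulk libraries, fewer cells of a type and less RNA per cell cannot be told apart.

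Ptges encodes the inducible microsomal prostaglandin E synthase that is coupled to Ptgs2 in activated macrophages (ENSMUSG00000050737, chromosome 2, 30889471 to 30929863). It was at 918.9, 873.3 and 694.7 CPM in PAC-CM-KD libraries and at 1089, 917.5 and 994.8 CPM in PAC-CM libraries. The groups overlapped by a narrow margin, since PAC-CM-KD replicate 1 lay just above PAC-CM replicate 2. The log2 fold change was -0.23 (SE 0.109, 95% interval -0.48 to 0.023, edgeR adjusted p = 0.375), with a fold change between 0.719 and 1.02. Without PAC-CM-KD replicate 1 it was -0.31 (edgeR adjusted p = 0.232), and over 15 other settings it stayed between -0.31 and -0.12.

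The other prostaglandin E synthases gave smaller estimates. Ptges2, a constitutive membrane-associated enzyme, was at 8.77, 8.08 and 7.27 CPM in PAC-CM-KD libraries and at 10.1, 9.25 and 8.23 CPM in PAC-CM libraries (log2 fold change -0.15, 95% interval -0.42 to 0.13, edgeR adjusted p = 0.624). Ptges3, better known as the Hsp90 co-chaperone p23, was at 90.8 to 93.3 CPM with kinsenoside and 86.2 to 98.5 CPM without it. Its 95% interval for the fold change ran from 0.929 to 1.15. A processed copy listed as Ptges3-ps held 412, 382 and 396 counts in PAC-CM-KD libraries and 350, 391 and 451 counts in PAC-CM libraries, and reads may be split between it and the gene.

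Ptges made up most of the length-scaled prostaglandin E synthase transcripts in every library. Its share of the summed Ptges, Ptges2 and Ptges3 TPM was 90.2%, 90.0% and 87.7% in PAC-CM-KD libraries and 91.8%, 90.8% and 90.5% in PAC-CM libraries.

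Hpgds encodes the glutathione-dependent enzyme that makes prostaglandin D2 in blood and immune cells (ENSMUSG00000029919, chromosome 6, 65117293 to 65144908). It was at 50.0, 55.4 and 46.9 CPM in PAC-CM-KD libraries and at 40.1, 41.0 and 44.5 CPM in PAC-CM libraries. All PAC-CM-KD libraries lay above all PAC-CM libraries. The log2 fold change was 0.32 (SE 0.0800, 95% interval 0.14 to 0.51), or 1.25-fold, with an unadjusted p of 0.00333 and an edgeR adjusted p of 0.128, the lowest among the 10 genes. Across the 15 other settings the estimate was 0.26 to 0.37 and the adjusted p 0.0373 to 0.373. The lowest of these was DESeq2's and the single one past the threshold.

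Mast cells are a known source of Hpgds. Of 8 mast cell and basophil markers 5 were at 0 in every library (Ms4a2, Tpsb2, Tpsab1, Mcpt8 and Fcer1a), and Cpa3 had 1 count in 1 library. The sum of the list was 62.3 to 70.2 CPM in PAC-CM-KD libraries and 75.8 to 88.5 CPM in PAC-CM libraries, nearly all of it Hdc, a histamine-forming gene (log2 fold change -0.27, edgeR adjusted p = 0.204). Kit, a growth factor receptor gene, was at 2.58, 1.23 and 0.729 CPM in PAC-CM-KD and at 0.929, 1.1 and 0.521 CPM in PAC-CM (log2 fold change 0.88, edgeR adjusted p = 0.447). Their part in the Hpgds values was not tested.

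Because Ptges and Hpgds draw on the same substrate, their ratio within a library was also taken, which does not depend on scaling between libraries. The ratio of Ptges to Hpgds TPM was 35.7, 30.7 and 28.8 in PAC-CM-KD libraries and 52.8, 43.5 and 43.5 in PAC-CM libraries, without overlap. The ratio of Ptges to Ptgr1 TPM was 5.97, 5.43 and 3.30 in PAC-CM-KD and 8.12, 6.44 and 6.86 in PAC-CM, also without overlap. Against Ptgs2 and against Tbxas1, the thromboxane synthase gene, the ratios of Ptges overlapped between groups. The means against Ptgs2 were 13.1 ± 2.27 in PAC-CM-KD and 14.1 ± 2.0 in PAC-CM (SD, n = 3 each). These ratios combine the estimates already given and are no separate support for them.

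**Figure D3:**
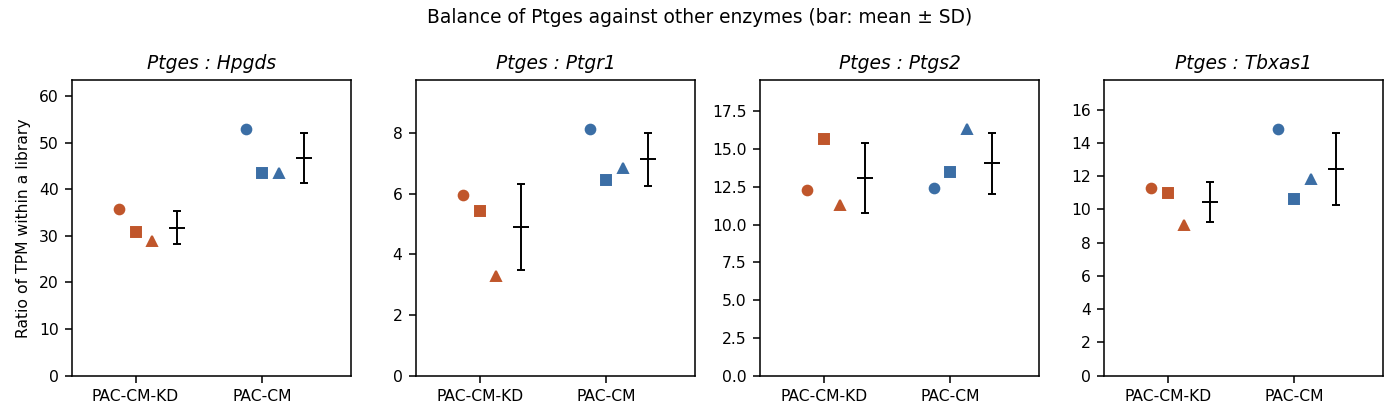
Ratio of Ptges TPM to the TPM of Hpgds, Ptgr1, Ptgs2 and Tbxas1 within each library, with mean ± SD per group. The PAC-CM-KD ratios lie below the PAC-CM ratios for Hpgds and Ptgr1 and overlap them for Ptgs2 and Tbxas1.

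Ptgr1 encodes prostaglandin reductase 1, also called leukotriene B4 12-hydroxydehydrogenase, which inactivates leukotriene B4 and 15-keto prostaglandins and is a known target of the antioxidant factor NRF2 (ENSMUSG00000028378, chromosome 4, 58965439 to 58987119). It was at 264.8, 276.5 and 362.1 CPM in PAC-CM-KD libraries and at 230.8, 245.2 and 249.6 CPM in PAC-CM libraries. The groups did not overlap, and PAC-CM-KD replicate 3 stood well above the rest. The log2 fold change was 0.36 (SE 0.119, 95% interval 0.086 to 0.64), or 1.28-fold, with an unadjusted p of 0.0163 and an edgeR adjusted p of 0.221. Without PAC-CM-KD replicate 3 it was 0.20, the lowest of the 15 other settings.

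In the leukotriene branch, both genes had groups that overlapped closely. Alox5ap, which encodes FLAP (ENSMUSG00000060063, chromosome 5, 149264767 to 149288153), was at 174.6, 157.6 and 171.4 CPM in PAC-CM-KD and at 156.9, 186.6 and 171.2 CPM in PAC-CM. Its fold change had a 95% interval of 0.886 to 1.15 (edgeR adjusted p = 0.967), and the sign of its estimate changed with scaling. Lta4h, whose product makes leukotriene B4 (chromosome 10, 93453411 to 93484875), was at 50.7, 58.8 and 57.1 CPM in PAC-CM-KD and at 53.1, 55.6 and 55.1 CPM in PAC-CM. Its fold change lay between 0.931 and 1.18 (edgeR adjusted p = 0.723).

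The enzyme that FLAP serves was nearly missing from the transcripts. Alox5, 5-lipoxygenase, had 3, 21 and 0 counts in PAC-CM-KD libraries and 3, 13 and 5 counts in PAC-CM libraries, and was filtered out before testing. Several of these counts are at or under the limit of 3. In TPM it lay at or below 0.395 in PAC-CM-KD and at or below 0.219 in PAC-CM, against more than 300 for Alox5ap in every library. Ltc4s, which makes the cysteinyl leukotriene C4, had few counts as well, 30 to 53 with kinsenoside and 38 to 67 without it (edgeR adjusted p = 0.852). Alox5 and Ltc4s were chosen after their values were seen.

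Pla2g7 encodes a secreted phospholipase that breaks down platelet-activating factor and oxidized phospholipids (ENSMUSG00000023913, chromosome 17, 43568098 to 43612201). It was at 1021, 907.9 and 1106 CPM in PAC-CM-KD libraries and at 943.7, 1027 and 886.0 CPM in PAC-CM libraries. PAC-CM-KD replicate 3 was highest and PAC-CM replicate 3 lowest, with overlap between the groups. The log2 fold change was 0.13 (SE 0.0910, 95% interval -0.076 to 0.34, edgeR adjusted p = 0.549). An opposite-strand gene model that overlaps its exons had 174 to 306 counts, and since the use of strand in counting is not stated, those reads cannot be told apart from Pla2g7, which had 38313 to 45479 counts in PAC-CM-KD libraries and 39084 to 48727 counts in PAC-CM libraries.

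**Figure D4:**
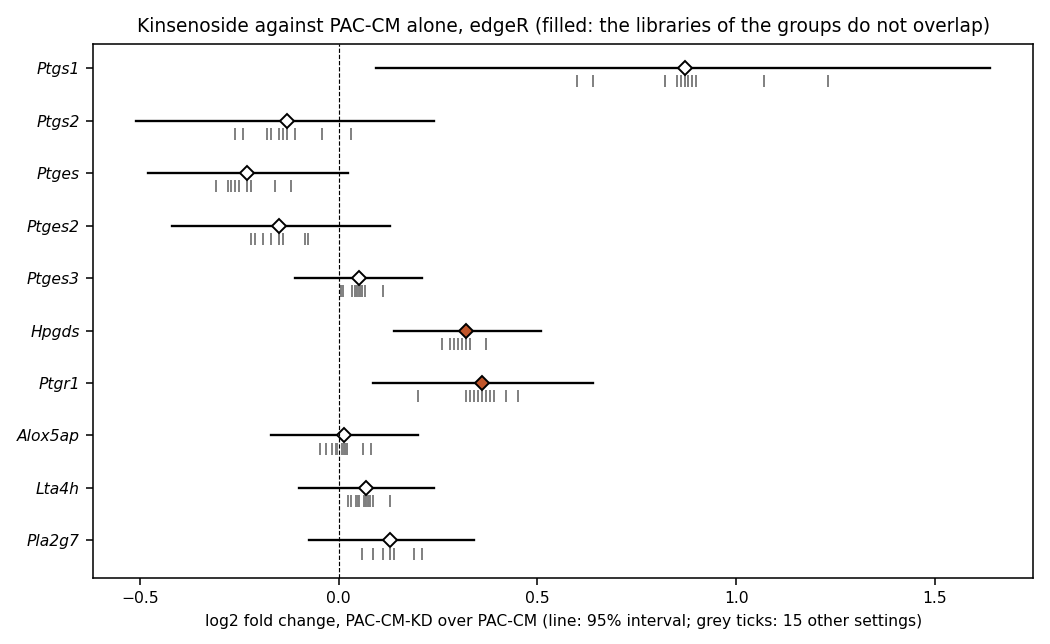
Log2 fold change of PAC-CM-KD over PAC-CM for the 10 genes, with the 95% interval of the edgeR fit (line) and the estimates under 15 other settings (grey ticks). The intervals of Ptgs1, Hpgds and Ptgr1 lie above 0 before adjustment, and filled diamonds mark Hpgds and Ptgr1, whose groups do not overlap.

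The intervals set how large an undetected difference could be. For Ptges3, Alox5ap, Lta4h and Pla2g7 the 95% interval of the fold change stayed between 0.886 and 1.27. For Ptgs2, Ptges and Ptges2 it reached down to between 0.703 and 0.746, and for Ptgs1 up to 3.13. An adjusted p above the threshold therefore does not show equal levels for these genes.

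Around these enzymes, 66 other genes of the route were looked up, of which 41 were tested and 10 had no count in any library. The edgeR test called 0 of the 41, beside 0.511% of all tested genes. At an unadjusted p under 0.05, 2 were higher and 4 lower in PAC-CM-KD, beside 6.74% and 8.19%. DESeq2 called 1, Lpcat1, beside 3.6%, and limma-voom called 0. The median log2 fold change was -0.025. Groups did not overlap for 6 of the 41, 1 higher (Pla2g15, a lysosomal phospholipase) and 5 lower in PAC-CM-KD (Lpcat1, Abcc4, Ptger4, Cysltr1 and Cyp4f13), beside 6.86% higher and 15.7% lower over all tested genes. This split holds for CPM without the scaling of the test and can change with it.

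At the release step, the cytosolic phospholipase Pla2g4a, the main supplier of arachidonic acid, was at 115.8, 118.8 and 131.7 CPM in PAC-CM-KD and at 127.0, 128.8 and 138.1 CPM in PAC-CM. The groups overlapped (log2 fold change -0.06, edgeR adjusted p = 0.761). Pla2g15 was at 165.4 to 170.6 CPM with kinsenoside and 138.0 to 159.1 CPM without it (log2 fold change 0.22, edgeR adjusted p = 0.196).

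Of the other terminal synthases, Tbxas1 was well represented, at 116.3 to 123.2 CPM in PAC-CM-KD libraries and 111.4 to 131.3 CPM in PAC-CM libraries (edgeR adjusted p = 0.999). Ptgds, the lipocalin-type prostaglandin D synthase, had 0 counts in all 6 libraries, and Ptgis, the prostacyclin synthase, had at most 8 counts. Akr1b3, aldose reductase, which can make prostaglandin F2α, was at 88.3 to 101.5 CPM with kinsenoside and 95.9 to 108.0 CPM without it (edgeR adjusted p = 0.923). Hpgd, the dehydrogenase that starts prostaglandin breakdown, was at 0.219 to 0.530 CPM in PAC-CM-KD and 0.232 to 0.927 CPM in PAC-CM. Of the enzymes that trim cysteinyl leukotrienes, Dpep2 was at 111.6 to 115.4 CPM in PAC-CM-KD and 106.6 to 115.6 CPM in PAC-CM (edgeR adjusted p = 0.716), and Dpep1 had 0 counts throughout. Mgst3, a microsomal glutathione transferase that can form leukotriene C4, was at 5.08 to 6.49 CPM in PAC-CM-KD and 5.56 to 6.46 CPM in PAC-CM (edgeR adjusted p = 0.928).

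Other reductases and oxidases of inactivation gave small differences. Ptgr2, which reduces 15-keto prostaglandins like Ptgr1, had a log2 fold change of 0.27 (edgeR adjusted p = 0.392), and Zadh2, another 15-keto prostaglandin reductase, one of 0.12 (edgeR adjusted p = 0.413). Cyp4f13, of a cytochrome P450 family that hydroxylates leukotriene B4, had one of -0.16 (edgeR adjusted p = 0.354). Cyp4f18 and Cyp4f16 of the same family had -0.053 and -0.13 (edgeR adjusted p = 0.907 and 0.576), with groups that overlapped. Abcc4, an exporter of prostaglandins, was at 69.6, 68.2 and 74.8 CPM in PAC-CM-KD and at 80.3, 82.8 and 84.1 CPM in PAC-CM (log2 fold change -0.17, edgeR adjusted p = 0.280). Abcc1, an exporter of leukotriene C4, had a log2 fold change of 0.13 (edgeR adjusted p = 0.626).

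Receptors for these lipids also gave no call. The prostaglandin E receptor genes Ptger4 and Ptger2 were at 14.9 to 18.2 and 23.7 to 32.2 CPM in PAC-CM-KD libraries and at 19.3 to 22.7 and 20.4 to 26.9 CPM in PAC-CM libraries (log2 fold changes -0.31 and 0.19, edgeR adjusted p = 0.229 and 0.607). Ptgir, the prostacyclin receptor, was at 26.5 to 35.3 CPM in PAC-CM-KD and 30.9 to 35.5 CPM in PAC-CM (edgeR adjusted p = 0.753). Cysltr1, a receptor of cysteinyl leukotrienes, was at 26.3 to 29.8 CPM in PAC-CM-KD and 30.1 to 35.9 CPM in PAC-CM (log2 fold change -0.16, edgeR adjusted p = 0.456).

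In platelet-activating factor metabolism, which Pla2g7 ends, the receptor gene Ptafr was at 310.9 to 353.8 CPM in PAC-CM-KD libraries and 336.7 to 369.6 CPM in PAC-CM libraries (edgeR adjusted p = 0.901). Lpcat1 and Lpcat2, acyltransferases that complete its synthesis, were chosen after their values were seen. Lpcat1 was at 15.1, 15.3 and 14.0 CPM in PAC-CM-KD and at 23.4, 25.4 and 20.4 CPM in PAC-CM, without overlap. Its log2 fold change was -0.60 (SE 0.101, 95% interval -0.83 to -0.37), and its edgeR adjusted p of 0.0533 missed the threshold, with a range of 0.00023 to 0.185 over the other settings. Lpcat2 was at 84.3, 71.3 and 69.0 CPM in PAC-CM-KD and at 78.7, 100.9 and 98.5 CPM in PAC-CM (log2 fold change -0.26, edgeR adjusted p = 0.335). Pafah1b1, a regulatory subunit of an intracellular acetylhydrolase, was at 99.4 CPM in PAC-CM-KD replicate 1 and between 167.6 and 186.6 CPM in the other 5 libraries.

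Of 17 signals and factors known to act on Ptgs2 or Ptges, Il1a and Il1b fell in PAC-CM-KD and 15 did not pass in edgeR's test, beside 0.302% lower over all tested genes. The list was drawn up with earlier results of these data known, so its count beside that share is a description only. At an unadjusted p under 0.05, 2 were higher (Tlr4 and Egr1) and 4 lower (Il1a, Il1b, Tnf and Il10), beside 6.74% and 8.19%. On CPM without the scaling of the test, groups did not overlap for 1 higher and 6 lower, beside 6.86% and 15.7%. These counts can change with the scaling. Interleukin-1 is a classical inducer of Ptgs2 and Ptges. Il1b was at 1057, 1057 and 935.1 CPM in PAC-CM-KD libraries and at 1548, 1554 and 1652 CPM in PAC-CM libraries (log2 fold change -0.60, edgeR adjusted p = 0.0152). The fold change of Il1a was -0.82 on the log2 scale (edgeR adjusted p = 0.0403). Both calls were lost without PAC-CM replicate 1, 2 or 3 and without PAC-CM-KD replicate 2, at edgeR adjusted p of 0.0627 to 0.0824 for Il1b and 0.117 to 0.157 for Il1a. The call of Il1a was also lost with a non-robust fit (adjusted p = 0.0542) and with limma-voom (adjusted p = 0.0548). Of 15 other settings, Il1b passed in 11 and Il1a in 9, with DESeq2 adjusted p of 1.34e-09 and 1.6e-07. Across them the log2 fold change stayed between -0.64 and -0.54 for Il1b and between -0.91 and -0.69 for Il1a. In the fits without 1 library that lost both calls, the calls over all tested genes fell too, from 71 to between 13 and 26. Tnf, another inducer, chosen after its values were seen, was at 85.4, 91.8 and 56.7 CPM in PAC-CM-KD and at 148.2, 114.2 and 121.0 CPM in PAC-CM, and did not pass (log2 fold change -0.67, edgeR adjusted p = 0.203), though DESeq2 called it lower (adjusted p = 0.00882). Il4ra, the receptor of an interleukin that restrains Ptgs2 in macrophages, was at 953.1 to 1233 CPM in PAC-CM-KD and 929.4 to 1117 CPM in PAC-CM (edgeR adjusted p = 0.619). Tlr4, Egr1 and Il10, chosen like Tnf after their values were seen, did not pass. Their log2 fold changes were 2.1, 1.08 and -0.42 (edgeR adjusted p = 0.297, 0.221 and 0.117). Tlr4 was at 107.4, 20.7 and 114.3 CPM in PAC-CM-KD and 17.6 to 23.2 CPM in PAC-CM. Egr1 was at 0.944 to 1.3 CPM in PAC-CM-KD and 0.302 to 0.737 CPM in PAC-CM. Il10 was at 12.8 to 15.1 CPM in PAC-CM-KD and 17.5 to 19.7 CPM in PAC-CM. Whether Ptgs2 and Ptges differed from Il1a and Il1b in their response was not tested.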

How the data were processed

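The values are whole-number counts for each Ensembl gene in each library, used as the authors deposited them. The submitters' processing notes name STAR, GRCm38, StringTie 1.3.1c and DESeq2 1.16.1 with no role or order, and no source used here names the counting tool. A count of 3 occurred in 6202 cells of the table and a count of 2 in 5128, so the values may be rounded estimates. GENCODE M21 (GRCm38) gave positions and transcript lengths for 55154 identifiers.

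Groups were compared with edgeR 4.0.16 in R 4.3.3, by filterByExpr, TMM, robust quasi-likelihood fits on the group alone, two-sided, with Benjamini-Hochberg adjustment over 13901 genes. A standard error is the absolute log2 fold change over the root of F, and 95% intervals use the fit's total degrees of freedom. CPM are counts over the library total, and the overlap of groups was judged on CPM without the TMM factors. Those factors were 0.979 to 0.99 in PAC-CM-KD libraries and 1.013 to 1.019 in PAC-CM libraries. Leaving them out sets PAC-CM-KD values lower against PAC-CM values than the test does. The script was tested on simulated data. Alternatives were DESeq2 1.42.0, limma-voom 3.58.1, other scalings and filters, a replicate block, a non-robust fit, each library left out and, for TPM, the longest transcript. The genes and lists were chosen with earlier results of these data known. Named genes are the 10 enzymes, called genes and the 2 most abundant of each role. Ptger2, Ptger4, Cyp4f13, Cyp4f16, Cyp4f18, Ltc4s, Hpgd, Lpcat1, Lpcat2, Tnf, Tlr4, Egr1 and Il10 were chosen after their values were seen. So were the untested genes and the markers.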

Additional observations from a re-analysis of the deposited data

How the results depend on the processing

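The count of called genes over the whole table, 71 (29 higher, 42 lower), moved with the processing, and the cause was not tested. It was 42 with the replicate block, 36 with a non-robust fit, 39 with limma-voom and 490 with DESeq2. It was 13, 26 and 14 without PAC-CM replicates 1, 2 and 3, and 98, 20 and 37 without PAC-CM-KD replicates 1, 2 and 3. With library totals alone the split was 25 higher and 63 lower. None of the 10 enzymes was called with all settings but DESeq2, which called 1 (Hpgds). Of the other route genes, Lpcat1 was the 1 call with upper quartile scaling, library totals, no filter and DESeq2. The labels share replicate numbers but give no pairing, the deviations of same-numbered libraries from their group means correlated at 0.009, -0.101 and 0.135, and not every library correlated best with its own number. The replicate block called none of the enzymes.

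Signs changed for estimates close to 0, none of them called. Without PAC-CM replicate 1 the log2 fold change was 0.03 for Ptgs2, -0.048 for Alox5ap, 0.016 for Ptafr and 0.13 for Ltc4s. Without PAC-CM replicate 3 it was 0.03 for Tbxas1, 0.028 for Akr1b3 and 0.015 for Mgst3, and without PAC-CM replicate 2 it was 0.05 for Tbxas1. Without PAC-CM-KD replicate 1 it was -0.016 for Alox5ap, 0.034 for Akr1b3 and 0.054 for Pafah1b1. Without PAC-CM-KD replicate 2 it was 0.0029 for Tbxas1. Without PAC-CM-KD replicate 3 it was -0.0064 for Alox5ap, 0.017 for Tbxas1, 0.032 for Mgst3 and 0.014 for Ptafr. Alox5ap was at -0.0049 with upper quartile scaling and -0.031 with library totals. Tbxas1 was at 0.0071 with RLE scaling and with DESeq2, 0.0041 with the filter of more than 1 CPM in 3 libraries, 0.0033 with the replicate block and 0.0032 with limma-voom. Over all settings that leave out 1 library the log2 fold changes ran from -0.26 to 0.03 for Ptgs2, -0.048 to 0.082 for Alox5ap, -0.07 to 0.05 for Tbxas1, -0.069 to 0.034 for Akr1b3, -0.14 to 0.032 for Mgst3, -0.071 to 0.016 for Ptafr, -0.33 to 0.054 for Pafah1b1 and -0.44 to 0.13 for Ltc4s. Depth limits what can be said of genes with few counts, among them Ptgs1, Ltc4s and Alox5.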
